A study of Mus musculus with 54 samples.

Results

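The 9 genes described here encode the AP-1 family of transcription factors as it was read in cultured primary microglia of the mouse, the macrophages of the brain: the Fos proteins Fos, Fosb and Fosl2, the Jun proteins Jun, Junb and Jund, and the related Atf3, Batf and Maff. They were chosen by gene symbol, are 9 of the 16632 genes with counts, and all 9 were among the 13169 genes that passed the filter on low counts. The cells came from neonatal C57BL/6 mice, were grown from 2 pooled brains per flask in medium with L929 cell supernatant, and were shaken off an astrocyte layer. Donor cultures took up 1 µM alpha-synuclein (aSyn) carrying an Atto-488 label for 14 h, acceptor cultures were stained for 15 min with CellTracer Violet, and both were mixed and later sorted back apart by flow cytometry.

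The 14 groups were untreated cells, aSyn-treated cells that were not co-cultured, and donors and acceptors at 0, 15, 30, 60, 150 and 300 min. The labels give the 54 libraries replicate numbers 1 to 4, and libraries that share a number are called an experiment here. Same-numbered untreated libraries were summed, which left 52 values per gene. Donors and acceptors at 0 min had no value from experiment 4, donors at 60 min none from experiment 2, and acceptors at 300 min none from experiment 3. The protocol in the labels lists 15 to 300 min and does not describe 0 min, and it leaves unsaid whether the groups without co-culture went through the sorter. Donors and acceptors differed in aSyn, dye and culture vessel, so these cannot be told apart. Nothing in the labels ties an experiment to separate animals, so p-values measure the spread between these samples.

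AP-1 factors bind DNA as pairs: Jun proteins pair with themselves or with Fos, Atf, Batf or Maf relatives through a leucine zipper. Fos, Fosb, Junb and Atf3 are immediate early genes, switched on within minutes by MAP kinase, calcium or cytokine signals through factors such as SRF and CREB, and most of their messenger RNAs decay rapidly. In microglia and macrophages AP-1 acts with the lineage factor PU.1 at enhancers of inflammatory genes, and tissue dissociation and sorting are known to induce the same genes.

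Annotated positions in RefSeq (GRCm38.p6) are chr12:85473890-85477274 for Fos, chr7:19302696-19310118 for Fosb, chr5:32136472-32157840 for Fosl2, chr4:95049036-95052222 for Jun and chr8:84976909-84978748 for Junb. Jund lies at chr8:70697739-70700616, Atf3 at chr1:191170296-191183333, Batf at chr12:85686720-85709087 and Maff at chr15:79346621-79359078. Reads of the 3′ kit fall near the ends of the last exons. GENCODE models place Junos opposite Jun, Prdx2 opposite Junb, Gm11175 opposite Jund and Gm24748 opposite Atf3, and how the counting used strand is not given in the sources used here. Of these neighbours Prdx2 was tested, and its log2 fold change in acceptors against untreated cells was 0.11 at 30 min and 0.14 at 60 min. It was called in 1 comparison, with the block: aSyn-treated against untreated cells (0.28, adjusted p 0.0230).

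The promoters of the immediate early genes Fos, Fosb and Junb are printed, and that of Batf because its course was unlike theirs. Each sequence is from RefSeq (GRCm38.p6), runs 5′ to 3′ on the gene's strand from 250 bases before the start site to 50 bases after it, and lies at chr12:85473640-85473939 (plus strand) for Fos, chr7:19309996-19310295 (minus) for Fosb, chr8:84978699-84978998 (minus) for Junb and chr12:85686470-85686769 (plus) for Batf. Capitals mark TGACG, which is one side of the CREB site TGACGTCA, and TATAAA, the core of the TATA box.
Fos promoter: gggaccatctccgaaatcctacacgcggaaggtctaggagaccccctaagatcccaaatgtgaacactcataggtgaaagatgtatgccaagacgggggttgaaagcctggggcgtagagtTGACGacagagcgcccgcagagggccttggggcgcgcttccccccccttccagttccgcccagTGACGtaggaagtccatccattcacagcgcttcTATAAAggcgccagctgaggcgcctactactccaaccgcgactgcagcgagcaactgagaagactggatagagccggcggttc
Fosb promoter: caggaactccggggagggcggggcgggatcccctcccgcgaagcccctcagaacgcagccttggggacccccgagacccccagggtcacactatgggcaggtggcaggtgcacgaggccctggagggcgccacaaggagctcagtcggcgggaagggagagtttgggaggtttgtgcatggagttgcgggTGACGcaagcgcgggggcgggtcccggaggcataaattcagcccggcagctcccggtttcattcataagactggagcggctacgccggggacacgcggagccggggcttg
Junb promoter: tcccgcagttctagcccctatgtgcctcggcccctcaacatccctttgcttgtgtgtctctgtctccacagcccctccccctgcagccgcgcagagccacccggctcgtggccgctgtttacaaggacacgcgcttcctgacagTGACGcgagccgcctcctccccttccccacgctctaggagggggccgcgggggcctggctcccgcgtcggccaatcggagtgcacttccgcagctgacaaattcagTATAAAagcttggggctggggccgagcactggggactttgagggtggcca
Batf promoter: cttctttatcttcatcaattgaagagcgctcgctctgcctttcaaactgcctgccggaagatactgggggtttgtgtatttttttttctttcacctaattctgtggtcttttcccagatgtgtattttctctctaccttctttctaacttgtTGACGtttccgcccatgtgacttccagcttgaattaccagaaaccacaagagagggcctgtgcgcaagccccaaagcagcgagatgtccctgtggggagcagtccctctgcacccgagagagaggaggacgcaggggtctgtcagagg

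The Fosb window is set on a RefSeq start that lies downstream of the gene boundary given above and near the GENCODE start at 19310051. Counted from the start site of each window, TGACG began at -129 and -66 in Fos, -60 in Fosb, -106 in Junb and -98 in Batf. TATAAA began at -33 in Fos and at 1 in Junb, whose GENCODE start lies downstream at 84978718. On either strand TGACG also occurred in the windows of Atf3 and Maff, and thus in 6 of the 9 genes, against 20.8% of 32851 mouse promoter windows. The whole TGACGTCA, which contains TGACG on both strands, was found in 1 of the 3 Maff windows and in 1.79% of all windows. TATAAA was found in 13.6% of all windows. The AP-1 site TGANTCA (7.81% of all windows) and the CArG box bound by SRF (1.63%) were not found in these windows. The windows reach only 250 bases before the start, so sites further upstream were not read and their absence is not shown. The Jund window precedes the RefSeq start, which lies upstream of the GENCODE start at 70698949. Such matches describe letters in a window and are not measured binding.

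Library totals were 7807389 to 15537493 counts, and member genes had between 6 and 8995 counts in a sample. Values below are in CPM, the usual count per library size, here with sizes scaled by TMM, and CPM is compared for 1 gene across samples, not between genes. A gene was called at a Benjamini-Hochberg adjusted p under 0.05 over all 13169 genes in edgeR's quasi-likelihood test. Because same-numbered samples deviated together, each call is also given with the experiment as a block. Where edgeR called no member without the block, DESeq2 called none either unless its count is given. Ranges that do not overlap are given as a description, since the share of all genes with separate ranges was not counted. Experiment 4 forms a library batch of its own by its facility numbers, and its ribosomal precursor Rn45s took 13.39 to 22.27% of counts against 1.42 to 13.47% in experiments 1 to 3. The microglial marker Csf1r had 559 to 2430 CPM, whereas P2ry12 (1.48 to 12.3) and Tmem119 (0.925 to 13.1), which mark microglia in the brain, were low throughout. In bulk RNA, more cells expressing a gene and more RNA per cell cannot be told apart.

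**Figure D1:**
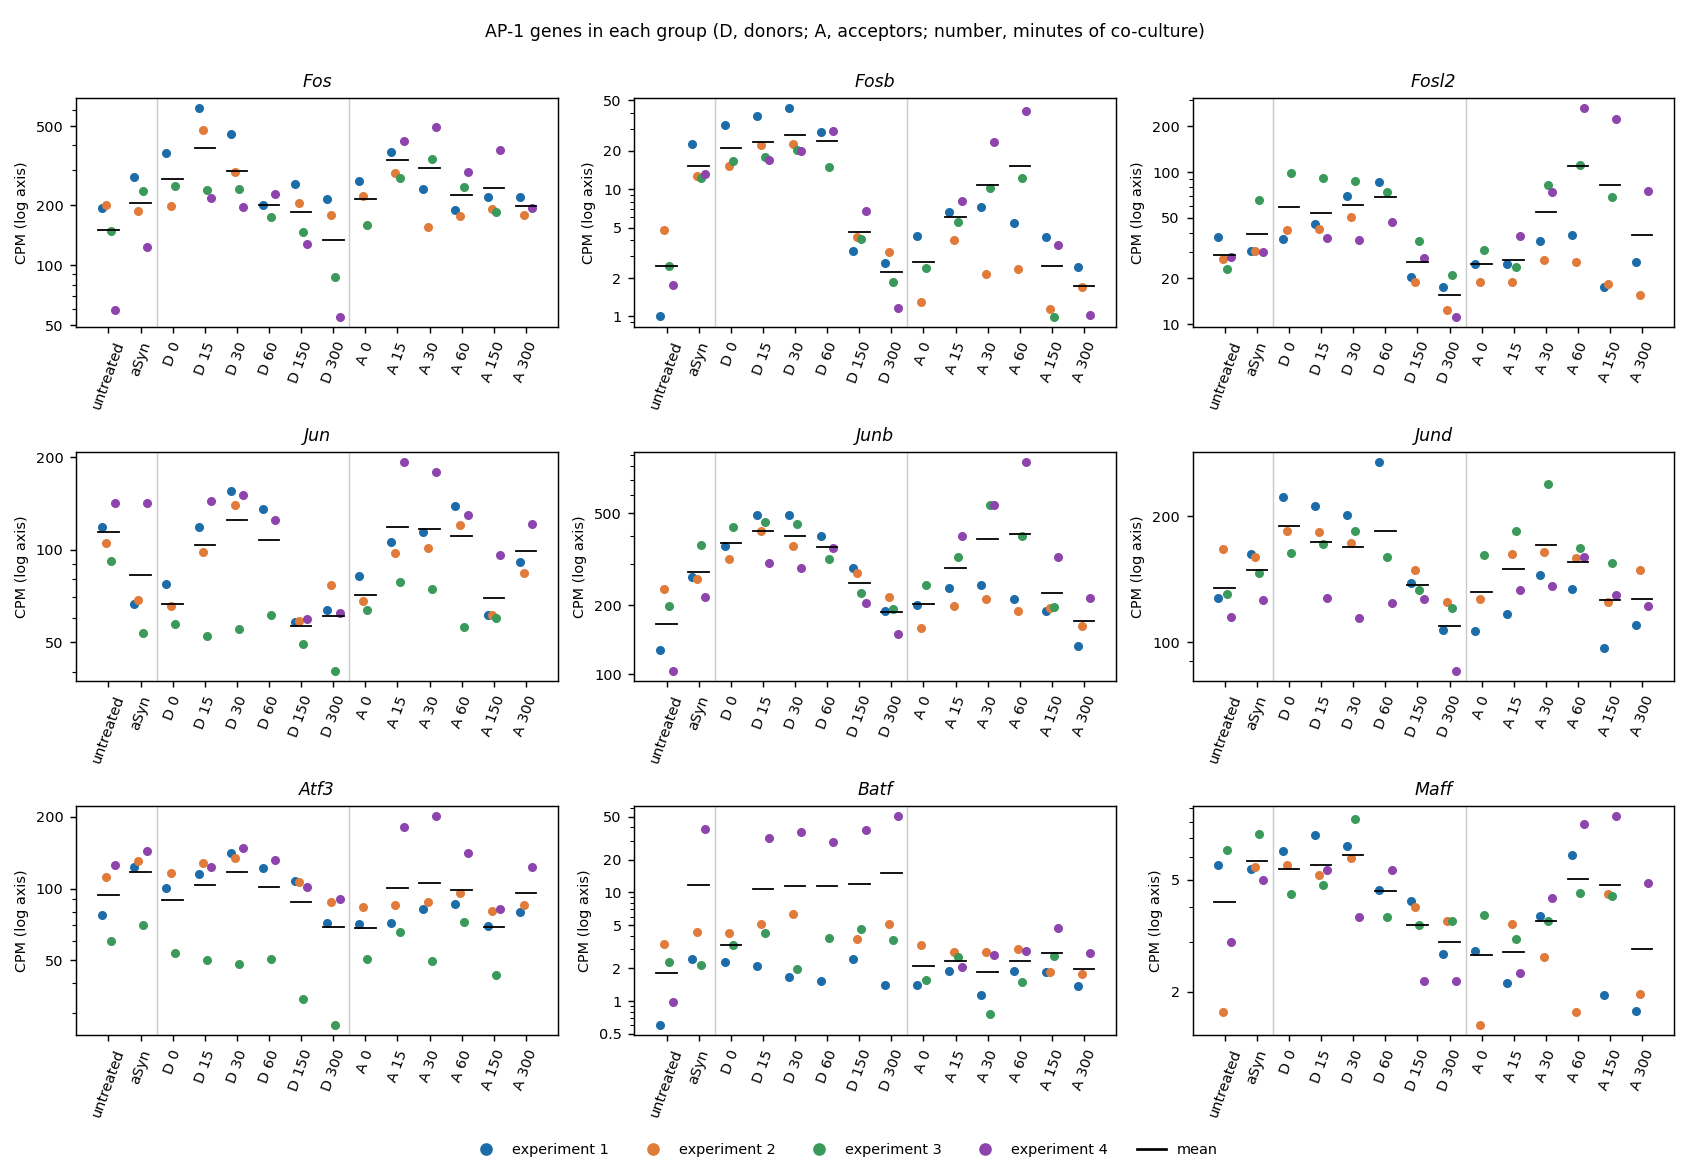
CPM of each AP-1 gene (log axis) in every experiment (points) and the group mean (line), for untreated and aSyn-treated cells, donors (D) and acceptors (A) at each number of minutes. Fosb is high in aSyn-treated cells and early donors and low in donors at 300 min, and Batf is high in experiment 4 in cells that had received aSyn.

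Fosb had the widest range of the 9 genes across the groups. Its mean was highest in donors at 30 min (26.6 CPM) and lowest in acceptors at 300 min (1.73 CPM), a ratio of 15.3. Donors at 30, 60, 15 and 0 min led the order, followed by acceptors at 60 min, aSyn-treated cells (15.1) and acceptors at 30 min (10.9). Acceptors at 15 min and donors at 150 min came next, and acceptors at 0 min (2.66), untreated cells (2.52), acceptors at 150 min, donors at 300 min and acceptors at 300 min were lowest. Neighbours in this order differed by less than the larger of their SDs, except donors at 150 min, which lay 1.92 CPM above acceptors at 0 min where the larger SD was 1.53, and the ranges of neighbours overlapped throughout. Group accounted for 78% of the variance of Fosb in log2 CPM and experiment for 4.18%, against medians of 25.0% and 33.9% over all tested genes.

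Of the other Fos genes, Fos was highest in donors at 15 min (387.8 ± 192.3 CPM, SD) and lowest in donors at 300 min (133.8 ± 74.7), a ratio of 2.90, and Fosl2 ranged from 109.5 ± 108.8 in acceptors at 60 min to 15.6 ± 4.68 in donors at 300 min. Among the Jun genes, Junb ranged from 419.4 ± 81.5 in donors at 15 min to 166.3 ± 61.0 in untreated cells, and Jund from 189.8 ± 29.9 in donors at 0 min to 109.3 ± 17.7 in donors at 300 min. Jun was highest in donors at 30 min (125.2 ± 47.1) and lowest in donors at 150 min (56.5 ± 4.72). Atf3 and Maff were both highest in donors at 30 min (117.8 ± 46.6 and 6.11 ± 1.86 CPM) and lowest in acceptors at 0 min (68.5 ± 16.8 and 2.69 ± 1.12). Donors at 15 or 30 min thus held the highest mean of 6 of the 9 genes, counting Fosb. For the 8 genes other than Fosb the ranges of neighbours in the order overlapped, and their means differed by less than the larger SD, except Fosl2 in acceptors at 0 min (24.8 CPM) and donors at 300 min (15.6 CPM), where the larger SD was 5.89.

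Exposure to aSyn for 14 h, without co-culture, was compared with no treatment to see how the members differed before mixing. Fosb, an immediate early partner of Jun proteins, was 1.01, 4.796, 2.49 and 1.77 CPM in untreated cells of experiments 1 to 4 and 22.5, 12.7, 12.2 and 13.1 CPM in aSyn-treated cells. The groups did not overlap, and the increase was seen in 4 of 4 experiments. Fosb rose with a log2 fold change of 2.55 ± 0.61 (SE; adjusted p 0.0126), or 2.40 ± 0.55 with the block (adjusted p 0.00174). It was the 1 member of 9 called without the block, where 2.5% of tested genes were called, and 2 of 9 members were called with the block, where 19.2% were.

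The second was Jun, the founding Jun protein, with 118.8, 104.9, 91.9 and 141.6 CPM in untreated and 66.6, 68.6, 53.4 and 141.7 CPM in aSyn-treated cells. Experiments 1 to 3 were lower after aSyn and experiment 4 was level. Jun fell with the block by 0.54 ± 0.19 on the log2 scale (adjusted p 0.0383), and its adjusted p was 0.479 without it. Junb had 127.6, 234.8, 199.0 and 103.8 CPM in untreated and 265.8, 259.7, 364.7 and 217.8 CPM in aSyn-treated cells. Junb was higher in each experiment, but the ranges overlapped and it was not called (log2 fold change 0.74 ± 0.32, adjusted p 0.228; 0.0989 with the block). Over the 9 members the median log2 fold change was 0.45, against -0.04 over all tested genes, and 8 were positive.

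The Fosb call without the block was lost without experiment 1 (log2 fold change 2.08, adjusted p 0.131), without experiment 3 (2.63, 0.141) and when the fit held only the groups compared (2.57, 0.0539). With the block it held without each experiment in turn (adjusted p 0.000635 to 0.0324). Jun lost its block call without experiment 1 (-0.43, 0.201), 2 (-0.48, 0.158) or 3 (-0.44, 0.134), and without experiment 4 its value was -0.73 (adjusted p 0.0114). The summed level of 8 astrocyte markers moved with this comparison: it ranged from 11.3 to 139 CPM in untreated and from 11.2 to 29.3 CPM in aSyn-treated cells. None of the 8 was called without the block and 5 were lower with it, while the median Aqp4 level over all samples was 0 CPM, and the part of these cells in the result was not tested.

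**Figure D2:**
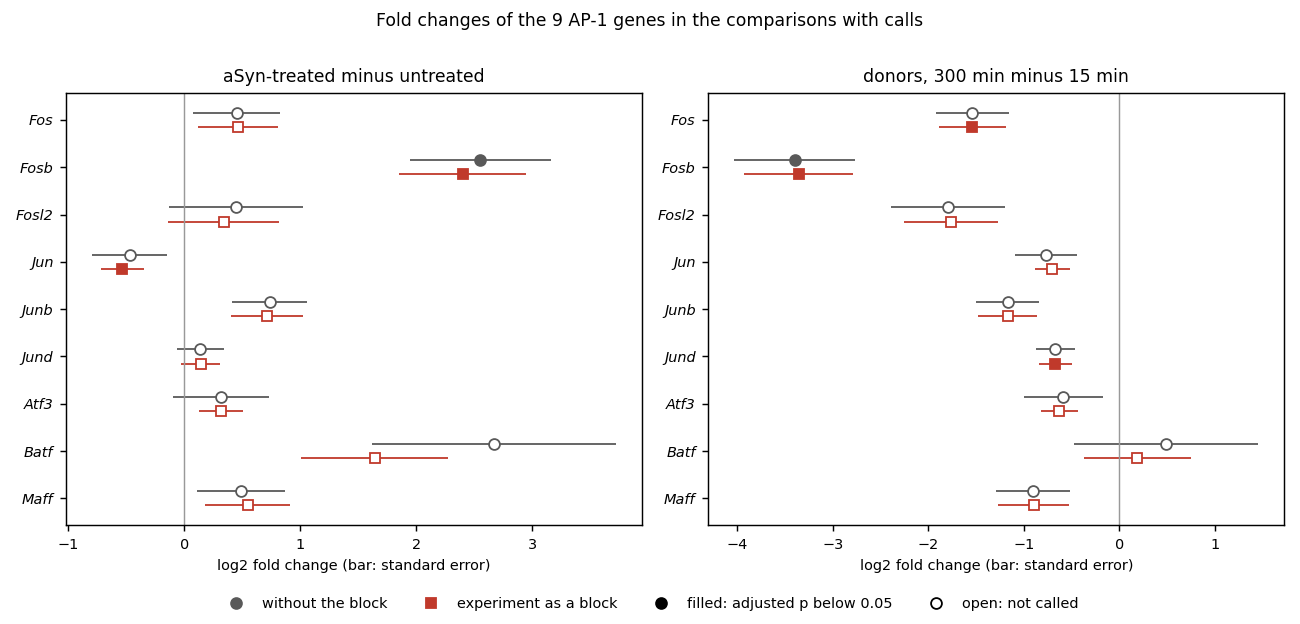
Log2 fold changes (x axis; bars, standard errors) of the 9 genes in aSyn-treated against untreated cells and in donors at 300 against 15 min, without (circles) and with (squares) the experiment as a block. Filled symbols passed an adjusted p of 0.05: Fosb in both comparisons under both fits, and Jun, Fos and Jund with the block in 1 comparison each.

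Donors were then set against the aSyn-treated cells to follow the members during co-culture, and the 6 comparisons share those control samples. In the first hour donor Fosb was 31.9, 15.1 and 16.7 CPM at 0 min in experiments 1 to 3, 37.6, 22.4, 17.8 and 16.97 CPM at 15 min in experiments 1 to 4, and 43.3, 22.7, 20.3 and 19.95 CPM at 30 min. At 60 min it was 28.3, 14.9 and 28.7 CPM in experiments 1, 3 and 4. Every one of these exceeded the aSyn-treated value of its own experiment, with log2 fold changes of 0.49, 0.65, 0.81 and 0.66. No member was called at 0, 15, 30 or 60 min with or without the block, where 0.0% of tested genes were called in each fit. Unadjusted p was under 0.05 for 0, 1, 0 and 0 of the 9 members without the block and for 0, 1, 1 and 0 with it. Of all tested genes 2.61, 1.02, 1.06 and 2.1% were under it without the block, and 5.51, 3.3, 3.11 and 5.47% with it.

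Later donors had less Fosb. It was 3.26, 4.18, 4.09 and 6.79 CPM at 150 min and 2.65, 3.19, 1.87 and 1.18 CPM at 300 min, below every aSyn-treated sample. At 150 min the log2 fold change was -1.72 ± 0.59 and no member was called under either fit, where 0.0% of genes were called. Unadjusted p was under 0.05 for 1 of 9 members and 0.904% of genes without the block, and for 3 and 3.08% with it. At 300 min Fosb fell with the block by 2.71 ± 0.57 on the log2 scale (adjusted p 0.0172; 0.135 without the block). Without the block 4 members and 2.78% of genes had an unadjusted p under 0.05 at 300 min. Of the 9 members 0 were called without the block, where 0.0304% of genes were, and DESeq2 called 1. With the block 2 of 9 were, where 0.304% of genes were called.

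Atf3, a stress-induced repressor that forms pairs with Jun, was the other member called with the block at 300 min. It was 123.4, 130.8, 70.4 and 143.7 CPM in aSyn-treated cells and 71.4, 88.2, 26.8 and 90.8 CPM in donors at 300 min. Each experiment had less at 300 min although the groups overlapped, because experiment 3 was low in both. Atf3 fell with the block by 0.83 ± 0.19 on the log2 scale (adjusted p 0.0409), against an adjusted p of 1.0 without it. The block call of Fosb was lost without experiment 1 (-2.56, 0.26) or 3 (-2.71, 0.323). That of Atf3 was lost without experiment 1 (-0.85, 0.255), 2 (-0.93, 0.308) or 3 (-0.68, 0.359), and without experiment 4 it was -0.88 (adjusted p 0.0227).

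The fall within the donors was measured between 15 and 300 min, which uses no control group. Fosb fell by 3.40 ± 0.63 on the log2 scale (adjusted p 0.00787), or by 3.36 ± 0.57 with the block (0.000678), with no overlap and a decrease in 4 of 4 experiments. Fos, the first AP-1 gene to respond to most signals, was 614.3, 480.3, 238.1 and 218.6 CPM at 15 min and 214.0, 178.3, 87.7 and 55.1 CPM at 300 min. The 2 groups of Fos values were separate, and Fos fell with the block by 1.54 ± 0.35 (adjusted p 0.0194; 0.134 without). Jund, the Jun protein usually kept at a steady level in resting cells, was 211.8, 183.7, 171.6 and 127.7 CPM at 15 min and 106.9, 124.5, 120.5 and 85.4 CPM at 300 min. Jund also fell with the block, by 0.67 ± 0.17 (adjusted p 0.0474; 0.481 without), and its values at the 2 times did not overlap.

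Without the block 1 of 9 members was called, where 0.0759% of genes were, and with the block 3 of 9, where 0.744% were. Of the 9 members 8 had a negative change, with a median of -0.90 against 0.02 over all tested genes. The exception was Batf (0.49 ± 0.97), whose positive value came from experiment 4: it was 2.10, 5.14, 4.23 and 31.4 CPM at 15 min and 1.40, 5.17, 3.65 and 50.1 CPM at 300 min, and without experiment 4 the log2 fold change was -0.18. Junb was 493.0, 420.4, 458.7 and 305.5 CPM at 15 min and 187.9, 217.1, 192.5 and 149.2 CPM at 300 min, 2 separate ranges, with a log2 fold change of -1.17 ± 0.33 (adjusted p 0.297; 0.0633 with the block). Fosl2 (-1.79 ± 0.60) and Maff (-0.90 ± 0.39) did not overlap either, and neither was called.

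Leaving out samples moved these calls. Fosb was not called without the block once experiment 1 (-3.19, adjusted p 0.355) or 3 (-3.45, 0.31) was left out, and with the block it was called in each case (0.000352 to 0.0481). Fos lost its block call without experiment 1 (-1.56, 0.188), 2 (-1.59, 0.155) or 3 (-1.56, 0.201), and Jund without experiment 1 (-0.56, 0.107), 2 (-0.71, 0.329) or 3 (-0.72, 0.13). Without experiment 4, which leaves 1 library batch, Fos (-1.47, 0.00118), Jund (-0.70, 0.0475) and also Junb (-1.20, 0.00315) passed with the block. Without the block, Fos passed there as well (-1.48, 0.0473).

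Tested over all 6 times, donors differed in Fosb (adjusted p 0.00538; 0.000369 with the block) and, with the block, in Jun (0.0017; 0.896 without). Thus 1 of 9 members was called where 0.0607% of genes were, and 2 of 9 with the block where 0.577% were. By group mean, Jun in donors was lowest at 150 min, with 58.3, 58.7, 49.4 and 59.4 CPM, and highest at 30 min, with 155.2, 139.4, 55.2 and 150.9 CPM. In experiment 3 the 2 values were close. The Fosb call without the block was lost without experiment 1 (adjusted p 1.0) or 3 (0.599), and with it likewise (0.149 and 0.0694). Jun lost its block call without experiment 1 (0.41) or 2 (0.131).

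**Figure D3:**
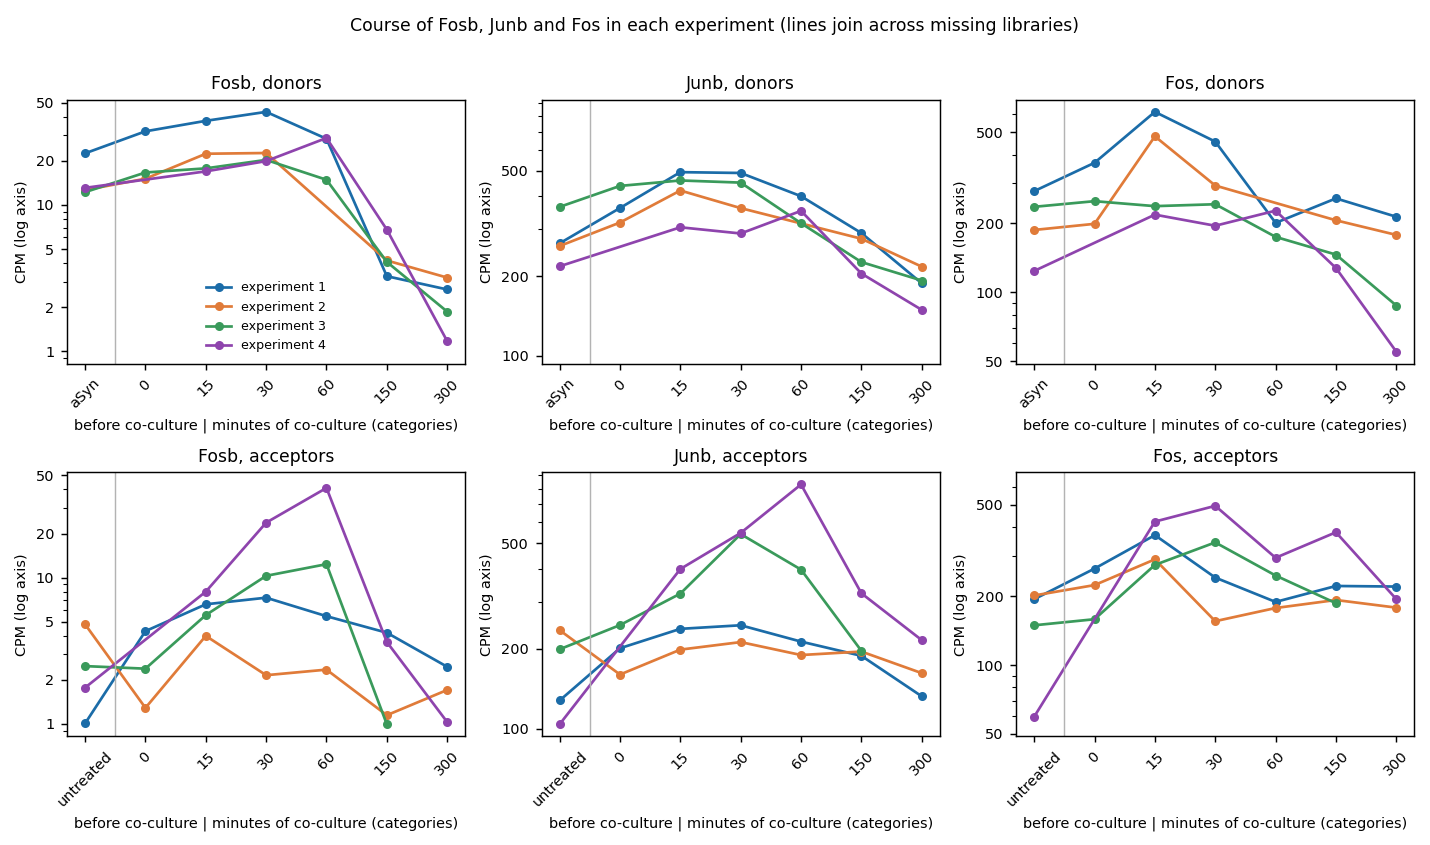
Fosb, Junb and Fos (CPM, log axis) in donors (upper row) and acceptors (lower row), 1 line per experiment, against minutes of co-culture as categories, with the group before co-culture at the left. Donor Fosb drops after 60 min in the experiments measured there and is low in all 4 at 300 min. In acceptors, Fosb of experiments 1, 3 and 4 climbs to 30 or 60 min and that of experiment 2 does not.

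Acceptors were set against untreated cells to follow the members in cells that had received no aSyn directly, and the 6 comparisons share the untreated samples. Acceptors were also stained with dye, mixed with donors and sorted, and these steps cannot be told apart. At 0 min no member was called, where 0.0% of genes were without the block and 0.995% with it. Unadjusted p was under 0.05 for 0 and 1 of 9 members, and for 5.69% and 14.0% of genes. At 15 min Fos was 369.1, 289.3, 273.6 and 422.9 CPM, above the untreated 193.8, 201.2, 149.1 and 59.5 CPM in each experiment and without overlap. Fos was not called (log2 fold change 1.17 ± 0.38, adjusted p 0.393; 0.0575 with the block). No member was called at 15 min, where 0.0% of genes were without and 2.25% with the block. Unadjusted p was under 0.05 for 3 and 2 of 9 members there, and for 6.37% and 16.8% of genes.

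Junb, an immediate early Jun protein that activates more weakly than Jun, was the first to be called in acceptors. It was 245.1, 211.8, 540.8 and 546.2 CPM at 30 min and 212.7, 189.3, 397.3 and 831.9 CPM at 60 min. Experiments 3 and 4 were well above their untreated values of 199.0 and 103.8 CPM, experiment 1 was moderately above 127.6, and experiment 2 was below 234.8. Junb rose with the block by 1.14 ± 0.31 at 30 min (adjusted p 0.0311; 0.188 without) and by 1.21 ± 0.32 at 60 min (0.021; 0.0937 without). At 30 min 3 members and 7.34% of genes had an unadjusted p under 0.05 without the block. Without the block 0 of 9 members were called, where 0.114% of genes were, and DESeq2 called 0. With the block 1 of 9 was called, where 3.6% of genes were.

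Fosb followed the same samples. It was 7.29, 2.15, 10.3 and 23.7 CPM at 30 min and 5.45, 2.35, 12.4 and 41.0 CPM at 60 min. In experiment 2 it stayed below its untreated 4.796 CPM, and in experiments 1, 3 and 4 it exceeded 1.01, 2.49 and 1.77 CPM. At 30 min it was not called (2.07 ± 0.60, adjusted p 0.245; 0.0574 with the block). Fosb rose at 60 min with the block by 2.25 ± 0.56 (adjusted p 0.0145; 2.56 ± 0.61 and 0.0697 without). At 60 min 3 of the 9 members and 7.62% of genes had an unadjusted p under 0.05 without the block. Without the block 0 members were called, where 0.0683% of genes were, and DESeq2 called 2. With the block 2 were called, where 4.0% of genes were.

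Fosl2, a Fos protein that accumulates later than Fos, was 38.8, 25.5, 111.0 and 262.7 CPM in acceptors at 60 min against 37.2, 26.9, 23.0 and 27.5 CPM untreated. Experiments 3 and 4 carried that difference, and Fosl2 was not called (1.93 ± 0.59, adjusted p 0.244; 0.0597 with the block). The block calls at 30 and 60 min were lost when any 1 of experiments 1, 3 and 4 was left out. Without experiment 4 the block values were 0.77 for Junb at 30 min (adjusted p 0.0508), and at 60 min 0.46 for Junb (0.319) and 1.04 for Fosb (0.289). Junb at 30 min also lost its call without experiment 1 (1.20, 0.127) or 3 (1.02, 0.312). At 60 min the calls were lost without experiment 1 (Fosb 2.31, 0.0759; Junb 1.32, 0.0874) or 3 (Fosb 2.21, 0.158; Junb 1.28, 0.137). Without experiment 2, Fosb rose by 3.38 (0.00179) and Junb by 1.73 (0.00708) at 60 min, and Junb by 1.62 (0.0168) at 30 min.

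At 150 min acceptor Fosb was back at 4.202, 1.15, 0.996 and 3.63 CPM. Jun, at 61.1, 61.3, 59.7 and 95.9 CPM, was below its untreated value in 4 of 4 experiments and fell with the block by 0.72 ± 0.19 (adjusted p 0.0192; 0.541 without). It was the 1 member of 9 called with the block, where 4.78% of genes were. Without the block 0 were called, where 0.137% of genes were (2 members and 8.22% of genes at an unadjusted p under 0.05). The call was lost without experiment 1 (-0.65, 0.128) or 2 (-0.69, 0.104). At 300 min no member was called, where 0.0% of genes were without and 0.623% with the block, and none had an unadjusted p under 0.05. Astrocyte marker sums in acceptors reached at most 42.2 CPM at any time against 139 CPM in untreated cells, with 0 of 8 called without the block and at most 2 lower with it, and their part was not tested.

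Between 15 and 300 min no member was called in acceptors, where 0.0% of genes were called without and with the block. Unadjusted p was under 0.05 for 2 and 3 of 9 members, and for 2.17% and 5.88% of genes. Fosb had 6.57, 3.997, 5.54 and 8.01 CPM at 15 min and 2.46, 1.71 and 1.03 CPM in experiments 1, 2 and 4 at 300 min, 2 separate ranges (log2 fold change -1.82 ± 0.70, adjusted p 1.0; 0.658 with the block). Over all 6 times Fosb was called with the block (adjusted p 0.0377; 0.141 without). That made 0 of 9 members where 0.00759% of genes were called, and 1 of 9 with the block where 0.137% were. Without the block 3 members and 1.86% of genes had an unadjusted p under 0.05, and DESeq2 called 1 member. The block call was lost without experiment 1 (0.283), 3 (0.898) or 4 (0.347).

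The change from 15 to 300 min was then compared between donors and acceptors. No member was called, where 0.0% of genes were without the block and 0.0152% with it. In each fit 1 of 9 had an unadjusted p under 0.05, against 1.8% of genes without the block and 4.83% with it. That member was Fosl2, with -2.35 ± 0.86 (adjusted p 1.0; -2.26 ± 0.72 and 0.521 with the block). For Fosb the difference of the changes was -1.58 ± 0.91 (adjusted p 1.0), so a larger fall in donors than in acceptors was not shown.

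Donors and acceptors of the same co-culture time differed most in Fosb, at the start. It was 31.9, 15.1 and 16.7 CPM in donors and 4.31, 1.29 and 2.39 CPM in acceptors at 0 min, 2 separate ranges. Donors were higher by 3.01 ± 0.72 (adjusted p 0.0512), and with the block the difference passed (3.01 ± 0.65, 0.00404). At 15 min donors, at 16.97 to 37.6 CPM, were higher than acceptors, at 3.997 to 8.01 CPM, by 1.97 ± 0.59 (adjusted p 0.113), and with the block by 2.00 ± 0.53 (0.0122). At each of these times Fosb was the 1 member of 9 called with the block, where 4.28% and 9.57% of genes were. Without the block 0 were called, where 0.251% and 0.888% of genes were, and DESeq2 called 1 at each. Unadjusted p was under 0.05 for 4 and 3 members without the block, and for 7.48% and 11.5% of genes.

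Leaving out experiment 1 or 3 ended both block calls of Fosb, with adjusted p of 0.0588 and 0.117 at 0 min (log2 differences 3.11 and 3.12) and 0.0811 and 0.0786 at 15 min (1.79 and 2.12). From 30 min on the Fosb difference was 1.29, 0.65, 0.90 and 0.38 at 30, 60, 150 and 300 min, and no member was called. The share of genes called was 0.805%, 0.418%, 0.167% and 0.0304% without the block and 10.8%, 6.7%, 5.19% and 1.38% with it. Unadjusted p was under 0.05 for 3, 1, 2 and 2 of the 9 members without the block, and for 11.4, 9.85, 8.42 and 6.11% of genes. The mean of Fosl2 was lower in donors than in acceptors at 150 min (-1.69 ± 0.59, adjusted p 0.32) and at 300 min (-1.32 ± 0.63, 0.796). At 0 min Fosl2 was higher in donors without overlap (1.25 ± 0.68, 0.714), and none of these differences was called. At 150 min donors were lower in experiments 3 and 4 only, most in experiment 4 (27.29 against 222.6 CPM). In experiments 1 and 2 donors were slightly higher (20.49 against 17.59 and 18.86 against 18.36 CPM). Maff, a small Maf protein without an activation domain, was higher in donors without overlap at 0 min (1.01 ± 0.45) and 15 min (1.03 ± 0.39), with adjusted p of 0.575 and 0.249.

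**Figure D4:**
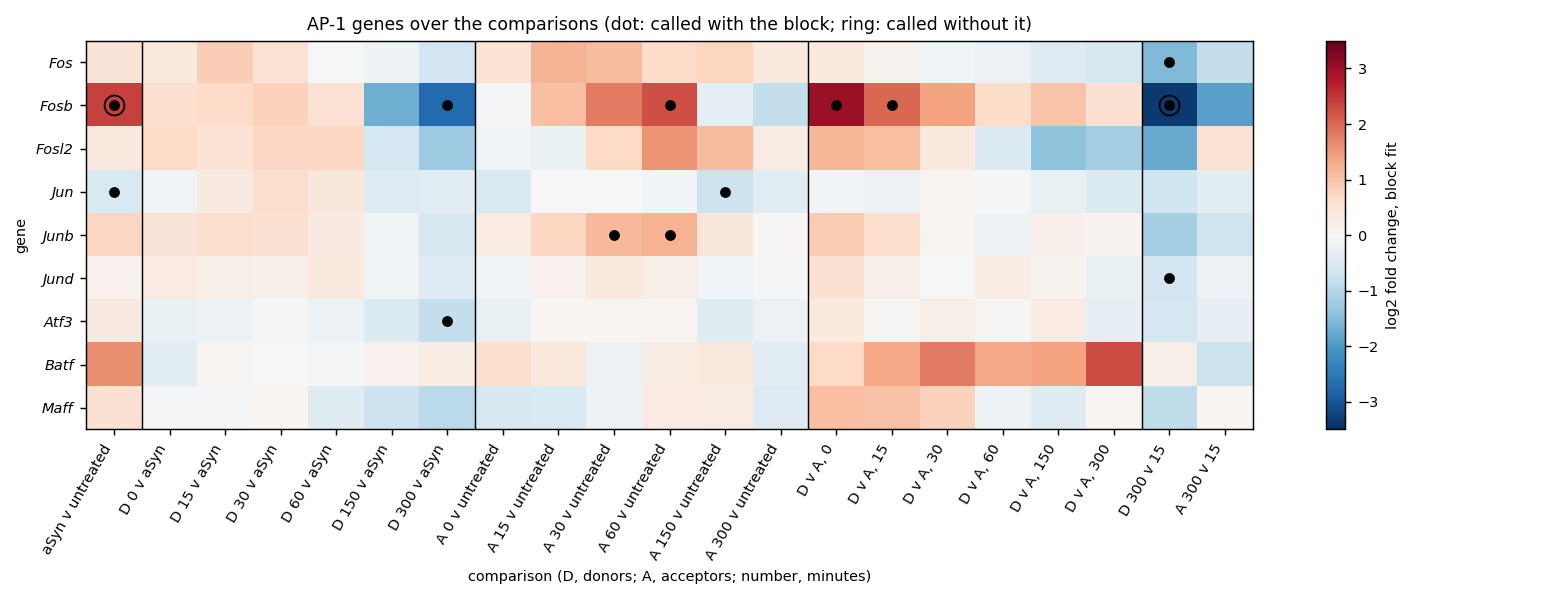
Log2 fold changes with the experiment as a block (colour) for the 9 genes (rows) in 21 comparisons (columns; D, donors; A, acceptors; number, minutes). Dots mark calls with the block and rings calls without it, and the Fosb row holds 6 of the 13 dots and both rings.

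Batf, a partner of Jun proteins that lacks an activation domain and is known from T cells and dendritic cells, had its own pattern. In experiment 4 it was 38.4 CPM in aSyn-treated cells and 31.4, 35.9, 29.1, 37.4 and 50.1 CPM in donors at 15, 30, 60, 150 and 300 min. The untreated cells of experiment 4 had 0.980 CPM, and its acceptors 2.07 to 4.74 CPM. In experiments 1 to 3 aSyn-treated cells had 2.43, 4.33 and 2.15 CPM against 0.605, 3.36 and 2.31 CPM untreated, and donors had 1.40 to 6.34 CPM. High Batf was thus seen in 1 experiment, the one that is a library batch of its own, and in its aSyn-receiving cells. Batf was not called in aSyn-treated against untreated cells (2.67 ± 1.05, adjusted p 0.167; 1.64 ± 0.64 and 0.0639 with the block), and without experiment 4 the value was 0.49 (0.743).

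Atf3 and Jun also depended on the experiment. Experiment accounted for 68.1% of the variance of Atf3 and 42.7% of that of Jun, and group for 17.6% and 44.3%. Experiment 3 had the lowest Atf3 value in every group in which it was measured, between 26.8 and 72.0 CPM. For Batf the shares were 41.9% and 29.0%. Experiments 1 to 4 were at passages 3, 1, 2 and 2, so neither passage nor library batch separates experiment 3 from all others.

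**Figure D5:**
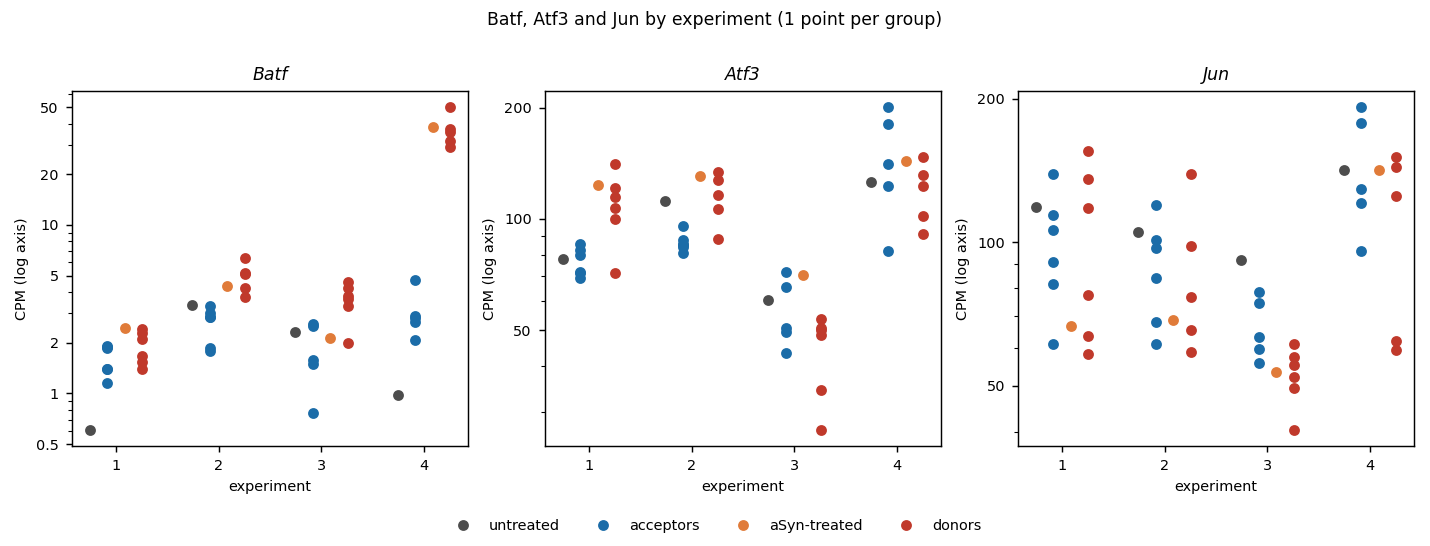
Batf, Atf3 and Jun (CPM, log axis) by experiment, 1 point per group, coloured by untreated, acceptor, aSyn-treated and donor groups. Batf stands at 29.1 to 50.1 CPM in aSyn-treated cells and donors of experiment 4, and Atf3 is low in experiment 3.

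The members differed in how alike their courses were. After the mean of each experiment was removed, Pearson's r of log2 CPM over the 52 samples was 0.85 between Fosb and Junb, 0.78 between Fos and Junb, 0.72 between Junb and Jund, 0.68 between Fosb and Jund and 0.58 between Fos and Fosb. Jun lay between 0.18 (with Maff) and 0.50 (with Atf3) with the others except Batf, with 0.28 for Junb and 0.29 for Fosb, and Batf was near 0 or negative with 7 of the 8 others, the exception being Fosb at 0.24. These r values are descriptions over samples that share libraries and groups. By the same measure the genes most like Fosb were Fbxo32 (r = 0.85), Per1, Kdm6b, Klf2 and Bhlhe40 (each 0.83), and those most like Junb were Nr4a1 and Zfp36 (0.88 each). Fos was closest to Osm (0.83) and Zfp36 (0.83), Jund to Rhob (0.87), Fosl2 to Arl4c (0.84), Jun to Ier5 (0.73), Atf3 to Rasgef1b (0.73) and Maff to Zfp655 (0.69). Batf was closest to Car13 (0.93), Ms4a6d (0.92), Slc15a3 (0.91), Traf1 (0.91) and H2-T22 (0.90). High Batf was seen in experiment 4 only, so the r values of Batf rest largely on that experiment.

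Other genes of the pathway were read from lists written for this comparison. Their counts stand beside 2.5% of all tested genes called after aSyn without the block and 19.2% with it, and beside 0.0759% and 0.744% in donors at 300 against 15 min. Of 11 other AP-1 and bZIP partners 1 was called in aSyn-treated against untreated cells: Atf4, the effector of the integrated stress response, rose by 1.01 (571.9 ± 192.8 against 284.4 ± 119.0 CPM, SD, n = 4 each; adjusted p 0.0217). With the block 3 were higher and 1 lower. None was called in donors against acceptors without the block, where 0.0304 to 0.888% of all genes were, depending on the time. With the block at most 3 were, where 1.38 to 10.8% of all genes were, and all 3 were higher in donors. Jdp2, a repressor that pairs with Jun, was such a gene at 15 min (26.8 ± 13.3 against 9.50 ± 3.58 CPM; log2 fold change 1.46, adjusted p 0.000135 with the block). Fosl1, a further Fos gene among them, had 0 counts in acceptors at 15, 30 and 60 min, and 0 to 58, 0 to 46 and 17 to 66 counts in donors, where 3 counts are 0.195 to 0.384 CPM in these samples. It was called at those times with the block (adjusted p 0.00867, 0.00297 and 0.00678) and not without it. Of 29 upstream kinases and factors 0 were called after aSyn without the block and 8 with it, 5 higher and 3 lower. Among these Mef2c, a calcium-regulated factor, fell by 1.19 with the block (adjusted p 0.00107). The list medians were 0.08 and -0.01, against -0.04 over all tested genes. From the list of kinases and factors, Elk3 was higher in donors than in acceptors at 15 min without the block (0.74, adjusted p 0.046). Elk1 was lower in donors at 30 min (-0.66, adjusted p 0.0125).

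Of 12 genes that limit AP-1, 2 rose after aSyn without the block and none fell, with a median of 0.14. Tsc22d3, the glucocorticoid-induced protein that binds Fos and Jun, rose by 1.90 (93.0 ± 36.1 against 24.8 ± 12.2 CPM; adjusted p 0.00159). Dusp1, the phosphatase that switches off MAP kinases, rose by 1.36 (328.7 ± 90.3 against 128.4 ± 69.4 CPM; adjusted p 0.0178). Dusp1 also rose in acceptors at 30 min by 1.67 (adjusted p 0.0212) and fell in donors from 15 to 300 min by 1.69 (adjusted p 0.0212), when 1 of the 12 was lower without the block and 3 with it.

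Of 28 known AP-1 targets 26 were tested. After aSyn 3 rose and 1 fell without the block, and 14 rose and 1 fell with it, with a median of 1.19 (0.77 with the block). The risers included Il1rn, which encodes the interleukin-1 receptor antagonist (log2 fold change 3.57, adjusted p 0.0256), and Cd44, an adhesion receptor (log2 fold change 0.69, adjusted p 0.00565). Il1rn had 854.8 ± 1072.0 against 72.1 ± 56.5 CPM, so its SD after aSyn exceeded its mean, and with the block it rose by 2.84. Cyclin D1 (Ccnd1), which drives cells into the cycle, fell by 2.65 (adjusted p 0.00899). Cd44 was higher in donors than in acceptors without the block at 0, 15, 30 and 60 min, by 0.76 to 1.06.

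Of 22 other genes known to respond to dissociation and sorting, 5 rose after aSyn and none fell, and 8 rose with the block, with a median of 0.56. Klf4 rose by 2.85 (39.9 ± 7.91 against 5.45 ± 3.05 CPM, adjusted p 0.000176) and Hspa1b, a heat shock protein, by 3.17 (adjusted p 0.00121). Ier3 rose by 3.08 (162.8 ± 172.2 against 19.3 ± 2.82 CPM, adjusted p 0.0463), with an SD after aSyn above its mean. The other 2 were the heat shock gene Hspa1a (2.34, adjusted p 0.00439) and Klf2 (2.61, 0.000272), and these 2 and Cd44 were named after their values were seen. In donors from 15 to 300 min 2 fell, Klf2 by 3.14 (21.3 ± 10.2 against 188.0 ± 104.7 CPM; adjusted p 4.8e-05) and Ier2 by 1.68 (0.0212), and 7 fell with the block, with a median of -0.80. In acceptors Klf4 was called at 30 min (1.90, adjusted p 0.0482) and 60 min (2.01, 0.0363). Genes of this list were also called where Fosb was not, such as Klf2 in donors against acceptors at 30 min (2.30, adjusted p 0.00141) and 60 min (2.30, 0.00401). The part of handling in the AP-1 result was not tested.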

How the data were processed

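RNA of primary mouse microglia was read by 3′ end sequencing (QuantSeq FWD) in 54 libraries of 14 groups. The authors deposited a count per gene and library for 16632 genes, and a normalized signal that equalled the count divided by a median-of-ratios size factor for 100% of values (tolerance 0.06). That signal was checked and not used otherwise. The submitters' processing notes name STAR, Partek, DESeq2 and the mm10 build; the counting step, its use of strand and all versions are not given in the sources used here.

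Groups and replicate numbers, here called experiment numbers, were taken from the labels, and no column lacked a sample. Untreated libraries with the same number were summed, which left 52 values per gene. They differed less (chi-square per degree of freedom 10.29 and 12.09) than untreated libraries of different numbers (24.21 to 288). The deposited counts were tested with edgeR 4.0.16 (R 4.3.3, limma 3.58.1) by the quasi-likelihood F test, with TMM scaling, filterByExpr with a minimum count of 10, and means of 14 groups fitted together. P-values were adjusted by Benjamini-Hochberg over 13169 genes. SE is the log2 fold change divided by the square root of its F statistic.

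Same-numbered samples of compared groups deviated together over genes (mean r 0.339 to 0.593, lowest single pair 0.199), so the numbers pair the samples and the fit with the number as a block is printed beside calls. The coefficient of biological variation was 38.12% without and 20.97% with the block. Alternatives were DESeq2 1.42.0, other scaling and filters, and leaving out each experiment. The tests were checked on simulated data. Correlations used log2 CPM with a prior count of 2. Totals limit the precision of low genes such as Batf, Fosb and Maff, and reads without molecular identifiers are not independent molecules.

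All 9 genes are named; from each other list and comparison at most the 3 called genes with the largest change, and the 5 genes most like each member, are named, and others are stated as chosen after their values were seen. One gene that the rule selects is not reported here. The members and lists were chosen with earlier results of these data known. Promoter sequences and positions are from RefSeq (GRCm38.p6), and opposite-strand models from GENCODE vM21 (GRCm38).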

Additional observations from a re-analysis of the deposited data

Results flagged for a closer look

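Of 90 groups of 4 values, 1 for each gene and group with 4 experiments, 16 held a value far from the other 3 by Dixon's criterion. Chance gives about 1 in 20 such groups, and the groups share experiments. Groups of 3 were not tested.

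Fosb stood out in experiment 1, with 22.54 CPM in aSyn-treated cells against 13.09 CPM in the nearest experiment, and 43.26 against 22.65 CPM in donors at 30 min. Fosl2 stood out in experiment 3, with 65.27 against 30.5 CPM in aSyn-treated cells and 91.6 against 45.45 CPM in donors at 15 min.

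Experiment 3 was low for Atf3 and Jun in donors. Atf3 was 50.11 CPM at 15 min (nearest 115.0), 48.39 CPM at 30 min (nearest 134.3) and 34.44 CPM at 150 min (nearest 101.7). Jun was 55.21 CPM at 30 min (nearest 139.4) and 49.42 CPM at 150 min (nearest 58.3).

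Experiment 4 was high for Batf wherever the cells had received aSyn: 38.4 CPM in aSyn-treated cells (nearest 4.334), and 31.4, 35.86, 37.36 and 50.12 CPM in donors at 15, 30, 150 and 300 min, where the nearest values were 5.14, 6.339, 4.565 and 5.166 CPM. In acceptors at 150 min experiment 4 was also high for Jun (95.93 against 61.26 CPM) and Junb (323.5 against 196.3 CPM).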

How the results depend on the processing

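Without the block, members were called in 3 results, 1 in each: aSyn-treated against untreated cells, donors at 300 against 15 min, and donors over the 6 times. With the replicate block the counts were 2, 3 and 2 there, and 2 in donors at 300 min against aSyn-treated cells, 1, 2 and 1 in acceptors at 30, 60 and 150 min against untreated cells, 1 and 1 in donors against acceptors at 0 and 15 min, and 1 in acceptors over the 6 times; the block changed no other count of members. DESeq2 called 2 in donors at 300 against 15 min, 2 in acceptors at 60 min against untreated cells, and 1 each in donors at 300 min against aSyn-treated cells, donors against acceptors at 0 and 15 min, and acceptors over the 6 times. With only the groups compared in the fit, 0 were called in aSyn-treated against untreated cells and 1 in donors against acceptors at 0 min. With the untreated libraries kept separate the counts were 2 in acceptors at 60 min and 1 in donors against acceptors at 0 min, and without the precursor Rn45s 1 in the latter.

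Without the block, leaving out each experiment in turn gave 0 to 1 members in aSyn-treated against untreated cells and in donors over the 6 times. The range was also 0 to 1 in donors against acceptors at 0 and at 15 min. It was 0 to 2 in acceptors at 60 min and in donors at 300 against 15 min, and 0 in all other comparisons. With the block, members passed in further comparisons too, such as Fos in acceptors at 30 min against untreated cells without experiment 2 (adjusted p 0.0471). Over all settings 31 counts of called members differed from the reported one by over 1.5 times, and no member value called in either fit changed direction in the settings run. Batf in donors at 300 against 15 min, which was not called, went from 0.49 to -0.18 without experiment 4 (-0.23 with the block). The cause of these changes was not tested. Other scaling moved the median of all genes by under 0.1 on the log2 scale. The fits with the block that leave out an experiment were added after the data were seen.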

Other observations

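Markers of other brain cells were read in the same fits. Of 9 oligodendrocyte markers none was called without the block except 1, lower in acceptors at 150 min than in untreated cells. With the block 3 were lower in aSyn-treated than in untreated cells, and 1, 2, 2, 4, 4 and 1 were lower in acceptors at 0, 15, 30, 60, 150 and 300 min. Of all genes 19.2% were called there after aSyn, and 0.995, 2.25, 3.6, 4.0, 4.78 and 0.623% in acceptors. The summed level of the 9 markers was 121 to 599 CPM in untreated cells and 71.4 to 271 CPM in all other groups. Of 4 tested neuron markers 1 was lower with the block, in acceptors at 30 min, and none was called without it. Of 3 tested endothelial markers 1 was higher in both fits in aSyn-treated cells (Pecam1, log2 fold change 2.53, adjusted p 0.0389 without the block; 1.81 ± 0.67 against 0.30 ± 0.24 CPM, SD, n = 4 each) and in donors against acceptors at 15 and 30 min, while Cldn5 had at most 3 counts in every sample. None of 4 tested fibroblast markers was called. Of 10 microglial markers none was called after aSyn without the block, and 2 were higher and 2 lower with it.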
